A study of Homo sapiens with 16 samples.

Results

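Ribosome footprints of the lung cancer line NCI-H1650 were compared between cells given rocaglamide A (RocA) and cells given the solvent DMSO, each for 30 min. The members were the libraries whose titles name this line, 4 of the 16 in the series: 2 with DMSO, 1 with 0.3 µM RocA and 1 with 3 µM RocA, with the genetic background labelled WT in all of them. NCI-H1650 is an established line from a lung adenocarcinoma, known for an activating deletion in EGFR. The other 12 libraries came from NCI-H520, another lung line, and from A375 and Hs 936.T, which are melanoma lines, with the same treatments and numbers of libraries. Both RocA doses were joined into 1 treated group of 2 libraries, so the spread within that group holds the difference between doses as well as the difference between libraries. Nothing in the labels says that the DMSO libraries came from separate cultures, and p-values therefore measure only the spread between these libraries.

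Ribosome profiling sequences the stretches of mRNA that ribosomes shield from RNase, so the footprints on a gene follow how many ribosomes sat on its mRNA. Translation of most mRNAs starts when the cap-binding complex eIF4F, with its RNA helicase eIF4A, opens the 5′ UTR so that the small ribosomal subunit can scan to the start codon. RocA is a plant-derived compound that clamps eIF4A onto purine-rich RNA, and the series title names the helicase DDX3 as another target. Footprints were not set against mRNA levels here, so a change in ribosomes per mRNA and a change in mRNA cannot be told apart.

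Counts over the 9374 named genes were 563967 and 548368 in the DMSO libraries, 143775 at 0.3 µM and 48637 at 3 µM. The treated libraries thus held 25.9% and 8.75% of the DMSO mean, and only 993 genes had at least 10 footprints at 3 µM, against 5397 and 5349 with DMSO. Values are given as CPM, counts brought to a common library total and scaled by TMM, so a change is one of a gene's share of its library, and a fall common to all genes was not measured. Chi-square per degree of freedom, which is 1 for counting error by itself, was 1.51 between the DMSO libraries. It was 1.55 between the RocA libraries, which differ in dose and are shallower. Thinned to the depths of the RocA libraries, the DMSO libraries gave 1.10, so the RocA libraries differed more at like depth. Pearson's correlation of log2 CPM was 0.971 between the DMSO libraries and 0.823 between the RocA libraries. Epithelial genes fitted the label: all 20 such genes that could be named were read, summing to 25300 to 26200 CPM with DMSO and 30900 to 31400 CPM with RocA, against at most 7430 CPM in any library of another line. Of 9 alveolar genes, NKX2-1, SFTPA1, SFTPB, SFTPC and SLC34A2 were at 0 in all 4 libraries, so these defining markers of lung epithelium were not read at this depth. Pigment cell genes summed to 144 to 247 CPM, against at least 28800 CPM in Hs 936.T. They did not separate lung from melanoma lines: A375 had 42.9 to 57.8 CPM with DMSO and 149 to 176 CPM with RocA. NCI-H520 had 994 to 2450 CPM with DMSO. Squamous genes summed to 323 to 324 CPM with DMSO, against 26.0 to 36.5 CPM in NCI-H520. Blood cell genes summed to at most 41.1 CPM.

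RocA shifted the footprints of a large part of the measured genes in both directions. Of 4622 genes tested, 793 were higher with RocA (17.2%) and 951 lower (20.6%), 37.7% together, at an adjusted p under 0.05 in edgeR's quasi-likelihood test. DESeq2 called 384 higher and 298 lower, which turns the balance: 45.5% of edgeR's calls were rises, against 56.3% of DESeq2's. Single genes and 5′ UTRs are described mainly over the 938 well-counted genes, those whose mean of the DMSO and RocA levels would give at least 10 footprints in the shallowest library (205.6 CPM). Among these, 359 were higher (38.3%), 223 lower (23.8%) and 356 not called, 62.0% called in all. Of the 359, 126 had a DMSO mean under that minimum and passed through their RocA level, and of the 223, 96 passed through their DMSO level, so gene groups are counted over all their tested members, beside the 17.2% and 20.6% of all tested genes. The median log2 change was -0.11 over all tested genes and 0.18 over well-counted ones. Scaling and testing the well-counted genes by themselves moved their median to -0.06 and the calls to 301 higher and 298 lower, so the sign of a change close to 0 is set by the scaling. Changes of at least 2-fold were called for 196 higher and 127 lower well-counted genes. Both RocA libraries lay above both DMSO libraries for 441 of the 938 genes (47.0%) and below them for 307 (32.7%), against 29.6% and 39.6% of all tested genes.

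**Figure D1:**
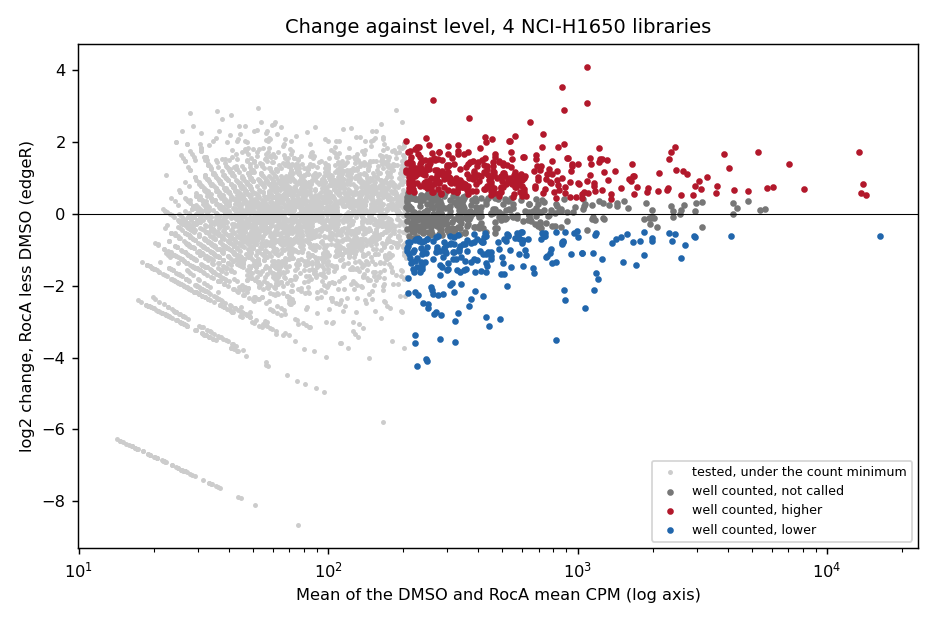
Each point is a gene tested in NCI-H1650, with the mean of its DMSO and RocA levels in CPM on a log axis and its log2 change with RocA on the vertical axis; grey points lie under the count minimum, red and blue points are well-counted genes called higher (359) and lower (223). Well-counted changes ran from -4.24 to 4.09, and the bands of points at the lower left are genes with few or no footprints in the treated libraries.

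The largest rise was that of ZFP36, an immediate early gene whose protein binds AU-rich mRNAs and leads to their decay. ZFP36 (ENSG00000128016.5, chromosome 19, 39406813 to 39409412, GRCh38) stood at 130 and 98.3 CPM with DMSO, 1646 CPM at 0.3 µM and 2501 CPM at 3 µM. The RocA libraries lay far above the DMSO libraries, a 17.1-fold rise (log2 4.09 ± 0.19, SE; edgeR adjusted p = 6.6e-37), and reading the longest matched transcript entry in its place gave 3.25 on the log2 scale. XBP1, the transcription factor of the unfolded protein response, stood at 59.1 and 49.2 CPM with DMSO, 529 CPM at 0.3 µM and 413 CPM at 3 µM. That was a 9.04-fold rise (log2 3.18 ± 0.27, SE; edgeR adjusted p = 6.0e-18), which came to 2.40 with all libraries thinned to equal depth.

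Very large proteins that tie the actin cytoskeleton to membranes and junctions, and the scaffold IQGAP1, were among the 10 largest rises. AHNAK, a giant scaffold under the plasma membrane, stood at 280 and 184 CPM with DMSO and 2016 and 1881 CPM with RocA (log2 3.08 ± 0.18, SE). PLEC, which encodes the cytolinker plectin, rose from 230 and 174 CPM to 1374 and 1757 CPM (log2 2.90 ± 0.18, SE). FLNA, an actin-crosslinking filamin, rose from 194 and 202 CPM to 1352 CPM at 0.3 µM and 827 CPM at 3 µM (log2 2.57 ± 0.19, SE). IQGAP1 rose from 113 and 82.5 CPM to 596 and 682 CPM (log2 2.66 ± 0.23, SE). The largest rises and falls were chosen among genes whose groups did not overlap, so that separation is no further result. Rises of this rank were also those of RANBP2, a nuclear pore protein with near-identical copies elsewhere in the genome and therefore uncertain (log2 2.13), and of GPX4, which reduces lipid peroxides (2.17; 1.41 at equal depth).

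Among the falls, UBE2D3, a ubiquitin-conjugating enzyme, went furthest. UBE2D3 (ENSG00000109332.19, chromosome 4, 102794383 to 102868896) stood at 412 and 437 CPM with DMSO, 15.1 CPM at 0.3 µM and 41.3 CPM at 3 µM, the latter values being 2 footprints each. It fell 18.8-fold (log2 -4.24 ± 0.44, SE; edgeR adjusted p = 6.6e-14), and by log2 -3.39 without the 0.3 µM library. ADAM10 (ENSG00000137845.14, chromosome 15, 58588807 to 58749978), a membrane protease that sheds cell-surface proteins, stood at 462 and 488 CPM with DMSO and at 30.2 and 20.7 CPM with 0.3 and 3 µM RocA. It fell 17.0-fold (log2 -4.09 ± 0.41, SE; edgeR adjusted p = 1.3e-14). CSNK1A1, the kinase casein kinase 1 alpha, stood at 403 and 518 CPM with DMSO and at 22.6 and 41.3 CPM with RocA (log2 -4.04 ± 0.42, SE). HNRNPD, an RNA-binding protein of AU-rich mRNAs, went from 586 and 602 CPM to 45.3 and 62.0 CPM, an 11.8-fold fall. NCOA3, a nuclear receptor coactivator, went from 410 and 406 CPM to 37.8 and 41.3 CPM (log2 -3.38 ± 0.39, SE). All of these RocA values rest on few footprints. Groups that did not overlap were a condition for choosing these genes.

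Of the other falls of this rank, 4 were smaller without the 0.3 µM library. TFG, a protein of transport vesicles leaving the endoplasmic reticulum, fell by log2 3.59 in the whole comparison, and its change without that library was -2.74. CNOT1, the scaffold of the CCR4-NOT deadenylase, changed by -3.50 and without that library by -2.65. PABPC1, the poly(A)-binding protein, stood at 1430 and 1529 CPM with DMSO, 83.1 CPM at 0.3 µM and 248 CPM at 3 µM. Its log2 change was -3.51 over both doses, -2.62 without the 0.3 µM library and -4.11 without the 3 µM library, lower than DMSO each time. SDC1, the cell-surface proteoglycan syndecan-1, changed by -3.12, or -2.46 without the 0.3 µM library. AP2M1, a subunit of the clathrin adaptor, fell by log2 2.99, from 581 and 567 CPM to 75.5 and 62.0 CPM, close values at both doses.

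**Figure D2:**
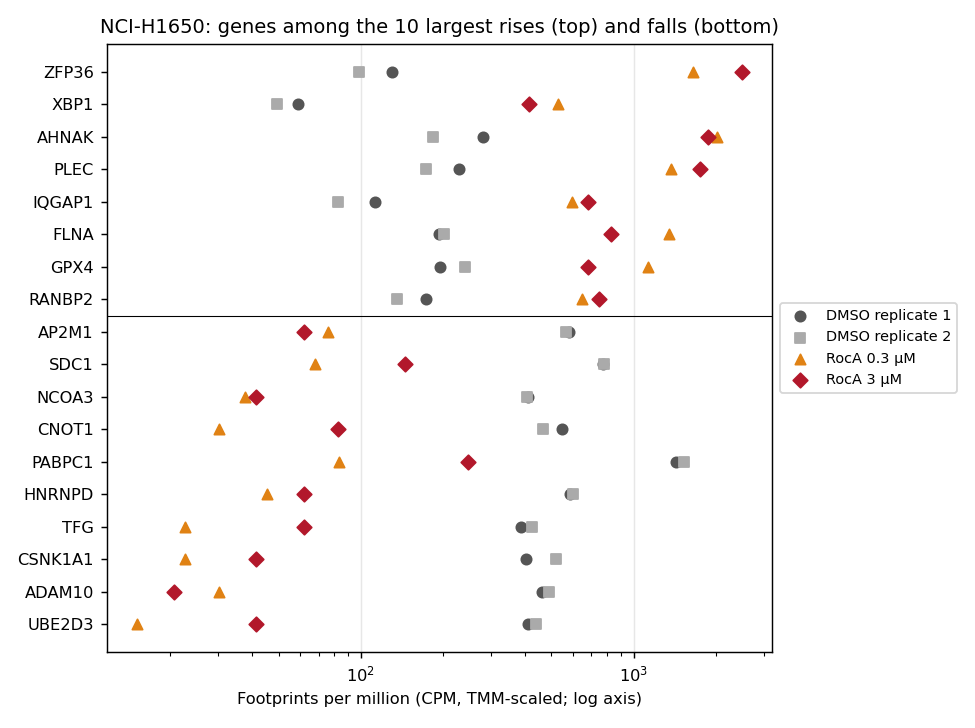
CPM in each of the 4 NCI-H1650 libraries (log axis) for 8 of the 10 well-counted genes with the largest rises, above the line, and the 10 with the largest falls, below it; grey symbols are DMSO libraries, the orange triangle is 0.3 µM RocA and the red diamond 3 µM RocA. By the rule of selection, the treated symbols lie to the right of both DMSO symbols in the rises and to the left in the falls. PABPC1 shows a wide gap between doses (83.1 and 248 CPM).

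The 5′ UTRs of these genes are shown because RocA is known to hold eIF4A on runs of A and G. For each gene the window around the longest purine run of the annotated 5′ UTR follows (GENCODE 29, GRCh38), with that run in capitals and written 5′ to 3′ as DNA. A run of at least 16 purines was found in 6.91% and one of at least 9 in 44.1% of the 5′ UTRs of 8772 named genes. Genes that fell come first, UBE2D3 at chr4:102827702-102827730 (minus strand), ADAM10 at chr15:58749788-58749817 (minus), CSNK1A1 at chr5:149551144-149551168 (minus), TFG at chr3:100709441-100709465 (plus) and HNRNPD at chr4:82373934-82373956 (minus).
UBE2D3: tgttccGAGAAGAAGGAAAAGGGcttgac
ADAM10: tcGAAGGAGGGGGGGAGAGAAGAGGGAAcg
CSNK1A1: ggcctggcAAAAAGAAAcctgactg
TFG: cgcgcaatAAGGAGGGGcgaaagga
HNRNPD: aaagcGAGGAGGAGGcgagagcg

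The same windows of genes that rose are those of ZFP36 at chr19:39406813-39406830 (plus), XBP1 at chr22:28800525-28800538 (minus), IQGAP1 at chr15:90388231-90388251 (plus) and AHNAK at chr11:62536511-62536539 (minus).
ZFP36: ttcctatAAGtagccggc
XBP1: cgtagtctGGAGct
IQGAP1: ggggcctcGGGGAccccggca
AHNAK: actGAGGGGAAGAGAGGAAGGAGGGGcgg

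The longest run was 17 bases in UBE2D3, 26 in ADAM10, 9 in CSNK1A1 and TFG and 10 in HNRNPD. Among the other falls it was 14 in CNOT1, 9 in PABPC1 and SDC1, 8 in NCOA3 and 6 in AP2M1. Among the rises it was 3 bases in ZFP36, 4 in XBP1, 5 in IQGAP1, PLEC and RANBP2 and 6 in FLNA. AHNAK, which rose 8.43-fold, had a run of 23 purines and GPX4, which also rose, one of 11, so runs of rising and falling genes overlapped. The annotated 5′ UTRs of the 10 falling genes spanned 148 bases (AP2M1) to 1129 bases (PABPC1), and those of the rising genes named above 48 bases (XBP1) to 275 bases (AHNAK). These genes were chosen for their change, so the runs describe them and were not tested.

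Across the 911 well-counted genes with an annotated 5′ UTR of at least 20 bases, the change fell with the length of the purine run. The correlation is across genes, which are not independent replicates and share these 4 libraries, and is given without a p. Spearman's correlation of the log2 change was -0.34 with the longest purine run, -0.36 with the number of 6-base windows made of purines alone, -0.32 with the length of the 5′ UTR and -0.15 with its share of purines. It was 0.07 with GC content and 0.05 with the number of codons counted. The 2 doses gave close values for the longest run, -0.34 at 0.3 µM and -0.31 at 3 µM, and over all 4401 tested genes with such a 5′ UTR it was -0.35.

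The 241 genes whose longest run was at most 5 bases had a median log2 change of 0.71, with 56.8% called higher and 11.2% lower. The median was 0.15 for the 318 genes with runs of 6 to 8, -0.10 for 197 genes with runs of 9 to 11 and -0.11 for 107 genes with runs of 12 to 15. In the 48 genes with runs of 16 to 43 bases it was -0.54, with 18.8% called higher and 56.3% lower. Of all well-counted genes, 38.3% were called higher and 23.8% lower. Long 5′ UTRs hold more runs, so genes were also split by length. With 5′ UTRs of 20 to 100 bases, the median was 0.73 for 207 genes with at most 3 all-purine windows and 0.17 for 41 genes with 4 or more. The corresponding medians were 0.36 (170 genes) and -0.09 (82 genes) at 101 to 200 bases, and 0.16 (78 genes) and -0.16 (202 genes) at 201 to 400 bases. Above 400 bases only 5 genes had at most 3 such windows (median -0.56), against -0.27 for 126 genes with 4 or more.

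**Figure D3:**
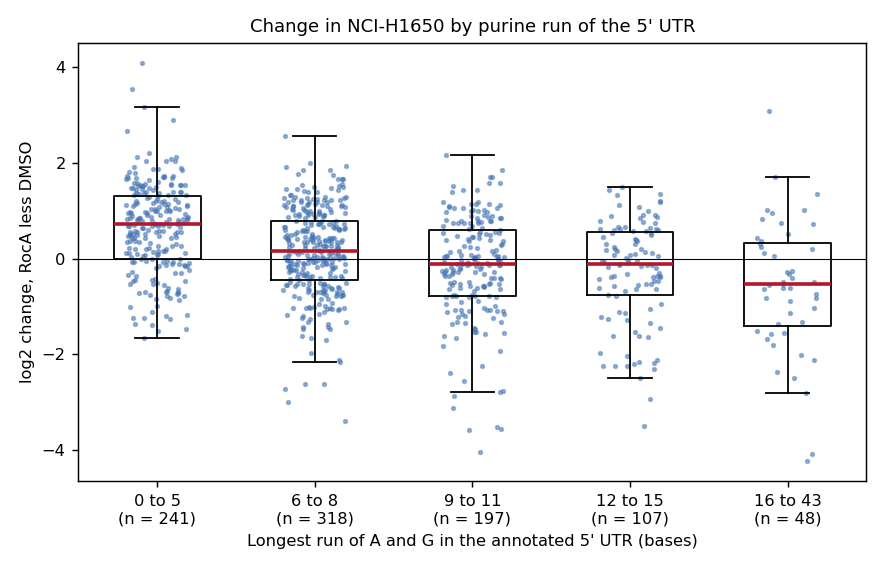
The log2 change with RocA of 911 well-counted genes, grouped by the longest run of A and G in the annotated 5′ UTR (bases); points are genes, boxes span the quartiles with the median in red, and whiskers reach the last gene within 1.5 times the box. The medians go from 0.71 in the class of shortest runs to -0.54 in the class of longest runs, and each class holds genes above and below 0.

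The target helicase itself changed little. EIF4A1 (ENSG00000161960.14, chromosome 17, 7572706 to 7579005), which encodes the main eIF4A, stood at 2220 and 2156 CPM with DMSO and at 2529 and 2542 CPM with RocA. Its log2 change of 0.21 ± 0.17 (SE) was not called (edgeR adjusted p = 0.33) and was -0.02 when well-counted genes were scaled by themselves. EIF4A2, its close paralog, went from 289 and 249 CPM to 596 and 579 CPM, a rise of 1.13 on the log2 scale. EIF4B, the cofactor that stimulates eIF4A, stood at 341 and 370 CPM with DMSO and 1253 and 1571 CPM with 0.3 and 3 µM RocA. It rose 3.83-fold (log2 1.94 ± 0.17, SE; edgeR adjusted p = 4.3e-17). PDCD4, which binds and inhibits eIF4A, went the other way, from 616 and 634 CPM to 98.2 and 124 CPM. That was a 5.92-fold fall (log2 -2.56 ± 0.29, SE; edgeR adjusted p = 2.2e-12). EIF4G2, a relative of the eIF4G scaffold without the cap-binding partner's site, went from 533 and 511 CPM to 113 and 124 CPM (log2 -2.16). DDX3X stood at 787 and 725 CPM with DMSO and 581 and 703 CPM with RocA, and its change of -0.29 ± 0.20 (SE) was not called. Of the 11 tested eIF4F partners, 2 rose, 3 fell and 6 were not called, beside 17.2% higher and 20.6% lower of all tested genes.

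Factors that act after initiation included falls of translation termination. GSPT1, the release factor GTPase eRF3, fell from 834 and 758 CPM to 294 and 269 CPM (log2 -1.47 ± 0.23, SE). ETF1, the release factor that reads stop codons, changed by -1.45, or by -2.16 without the 0.3 µM library. The ribosome recycling factor ABCE1 changed by -1.07, a call that ended without that library (-1.32) and in DESeq2. Of the 6 tested elongation and release factors these 3 fell, EEF1A1 and EEF1D rose and 1 was not called. The EEF1D rise of 0.71 ended without either DMSO library (0.63 and 0.65). Of 13 tested eIF2, eIF3 and other initiation factors, 3 rose and 3 fell, beside 17.2% and 20.6% of all tested genes. EIF3L was at 0.89 and EIF3G at -1.11, the latter a call that ended in DESeq2 and without the 0.3 µM library (-0.61). Of 16 aminoacyl-tRNA synthetases, which charge tRNAs, 6 rose and 1 fell, with QARS going from 169 and 190 CPM to 664 and 599 CPM (log2 1.85) and GARS from 537 and 558 CPM to 1419 and 1281 CPM (log2 1.32).

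Ribosomal protein mRNAs carry a 5′ terminal oligopyrimidine (TOP) tract, a run of C and T at the transcription start through which growth signalling sets their translation. Of 35 cytosolic ribosomal protein genes, all well counted, 15 rose, 7 fell and 13 were not called, against 38.3% higher and 23.8% lower of all well-counted genes, with a median of 0.31 against 0.18. RPL36A went from 1004 and 857 CPM to 2794 and 1943 CPM (log2 1.40 ± 0.17, SE), RPL3 rose by 1.10 and FAU by 0.98. Of 16 other TOP mRNAs, 7 rose and 5 fell, with a median of 0.23, beside 17.2% higher and 20.6% lower of all tested genes. Among these, RACK1, a scaffold protein of the small subunit, stood at 2714 and 2402 CPM with DMSO, 1117 CPM at 0.3 µM and 620 CPM at 3 µM. It fell by log2 1.43, and its change without the 0.3 µM library was -2.09. EIF2A rose by 1.57, a call that ended without the 0.3 µM library (1.08). Many of these genes have processed pseudogenes or near-identical copies, as have EEF1A1, PABPC1, KRT8 and LDHA, and their counts are uncertain to the extent that reads were split among copies.

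The start sites of 4 of these genes are shown because the tract was present in genes that moved in opposite directions. Each line gives 30 bases from RefSeq's promoter table (GRCh38.p14) around the annotated start, with the longest run of C and T that meets the annotated start or the 5 bases on either side in capitals: RPL36A at chrX:101391003-101391032 (plus), FAU at chr11:65122117-65122146 (minus), EIF4B at chr12:53006450-53006479 (plus) and RACK1 at chr5:181243891-181243920 (minus).
RPL36A: cgcggTTTCTTTCTTTCCgcgccgatagcg
FAU: cctcgCTTCTTCCTCTTTCTCgactccatc
EIF4B: ccgggTCTTTTgcgttctctttccctctcc
RACK1: gggggCTTTTCTCTCTCTCTTTCactgcaa

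Runs were sought over C and T on the strand of the RNA alone. They were 13 bases long in RPL36A, 16 in FAU and 6 in EIF4B, which rose, and 18 in RACK1, which fell. The EIF4B window holds a longer run further downstream, outside the stretch searched. Of the 51 tested TOP genes, 34 had an entry in that table, and 22 of these had a run of at least 10 bases, as did 6.06% of all 27305 promoter entries. A match is a description of the sequence and not of its use in these cells.

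Genes of mitochondrial translation and respiration were higher more often than lower, beside 17.2% and 20.6% of all tested genes. Of 26 tested mitochondrial ribosomal proteins 16 rose and 2 fell, with a median of 0.96 against -0.11 over all tested genes. DESeq2 called 11 of the 26 higher and 1 lower. MRPS27 went from 157 and 181 CPM to 544 and 579 CPM (log2 1.71 ± 0.22, SE; edgeR adjusted p = 1.6e-10), and came to 2.43 at equal depth. MRPS35 went from 160 and 174 CPM to 536 and 537 CPM (log2 1.68). MRPL47 rose by 1.69, and MRPL21 by 1.37, the latter a call that ended without the 0.3 µM library (0.92) and at equal depth (0.71). The respiratory chain genes encoded in the nucleus gave 14 rises and 4 falls among 26 tested members, with a median of 0.65. ATP5MF, a subunit of ATP synthase, went from 513 and 616 CPM to 1570 and 1777 CPM (log2 1.54), SDHA of complex II from 569 and 546 CPM to 1518 and 1385 CPM (log2 1.40), and UQCRB of complex III from 648 and 620 CPM to 1767 and 1509 CPM (log2 1.40). Of 15 tricarboxylic acid cycle genes, 5 rose and 2 fell in edgeR's test, with a median of 0.38, and DESeq2 called 2 higher and 2 lower. DLST, a subunit of the 2-oxoglutarate dehydrogenase, went from 182 and 221 CPM to 747 and 992 CPM. The call for citrate synthase (CS, 0.75) ended without the 0.3 µM library (0.49).

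Glycolysis was split. LDHA, which turns pyruvate into lactate, went from 2449 and 2481 CPM to 8064 and 8122 CPM (log2 1.71 ± 0.17, SE; edgeR adjusted p = 2.4e-15), and GPI from 1214 and 1201 CPM to 3851 and 3018 CPM (log2 1.54). Of 11 tested glycolysis genes 5 rose, and GAPDH and ALDOA fell. The rises of PFKP and HK1 ended without the 0.3 µM library (0.20 and 0.67).

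Among 37 tested DEAD-box and DEAH-box proteins, the helicase family to which eIF4A and DDX3 belong, 11 rose, 3 fell and 23 were not called, with a median of 0.36. Of all tested genes, 17.2% were higher and 20.6% lower. For the helicases DESeq2 called 7 higher and 0 lower, and at an unadjusted p under 0.05 edgeR had 12 higher and 5 lower. DDX5 went from 1122 and 1090 CPM to 2371 and 2170 CPM (log2 1.05 ± 0.17, SE). DDX46, a splicing helicase, rose by 1.55. DDX27, which acts in ribosome assembly, rose by 1.54 (0.95 at equal depth). DDX52 rose by 1.73, a call that ended at equal depth (0.90).

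Genes of the endoplasmic reticulum moved both ways, beside 17.2% higher and 20.6% lower of all tested genes. Of 18 tested ER chaperone and translocon genes 8 rose and 5 fell, with a median of 0.21. P4HB, a protein disulfide isomerase, went from 1484 and 1504 CPM to 3692 and 3266 CPM (log2 1.23 ± 0.16, SE), and SSR3, a subunit of the translocon-associated complex, from 314 and 316 CPM to 785 and 744 CPM (log2 1.29). Cytosolic chaperones were divided, 4 higher and 5 lower of 13. The TRiC subunits CCT3 and CCT5 rose by 1.18 and 1.19 and HSP90AA1 by 1.02.

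Actin-binding and giant linker genes included, beside FLNA, AHNAK and PLEC already given, further rises. Over the 18 tested, 12 rose and 2 fell, beside 17.2% and 20.6% of all tested genes, and the median was 1.06. The falls were those of the actin crosslinkers ACTN1 and ACTN4. Of 20 tested epithelial junction and keratin genes 5 rose and 5 fell. MUC1, a cell-surface mucin, went from 314 and 298 CPM to 944 and 868 CPM (log2 1.58 ± 0.18, SE). CTNND1, the p120 catenin of cell junctions, fell from 962 and 1006 CPM to 340 and 351 CPM (log2 -1.52 ± 0.22, SE), and the laminin receptor subunit ITGA6 fell by log2 1.09. KRT8 rose by 0.83, a call that ended without DMSO replicate 1 (0.69).

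**Figure D4:**
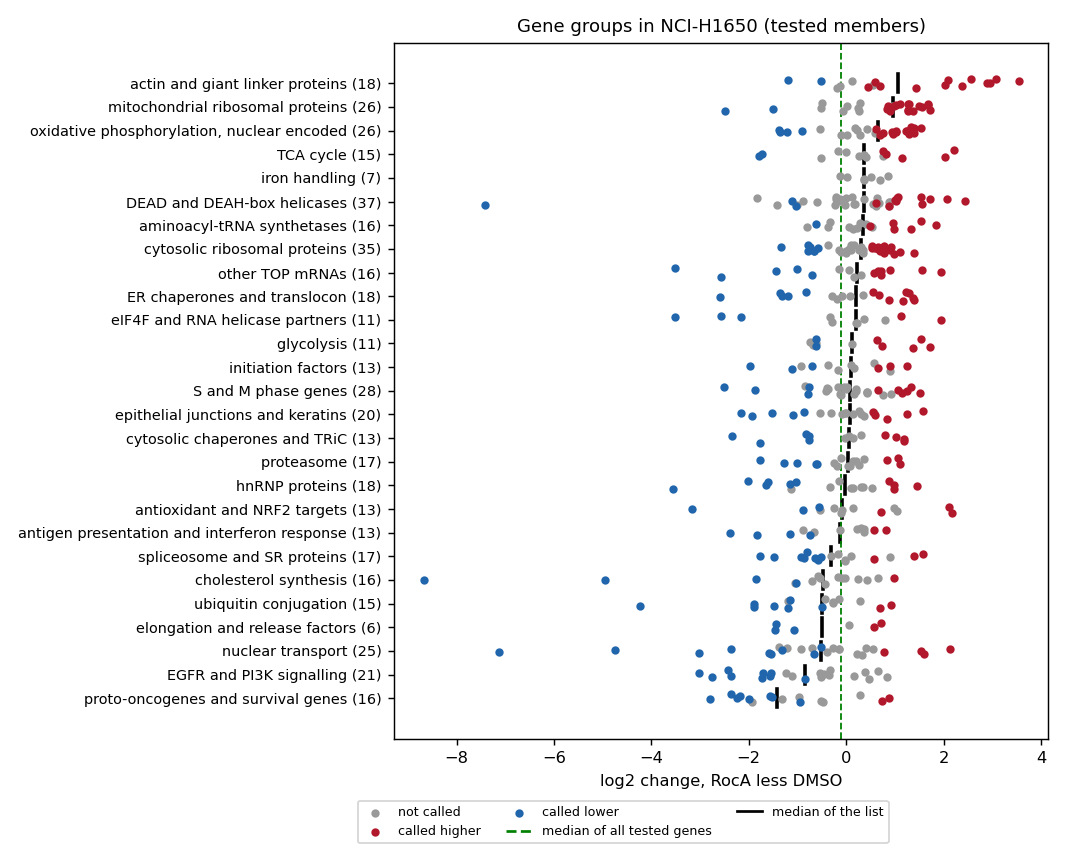
The log2 change with RocA of the tested members of each gene group with at least 6 such members (number in brackets); red points were called higher, blue points lower and grey points not called, black bars are group medians and the green dashed line is the median of all 4622 tested genes (-0.11). Actin and giant linker proteins (1.06) and mitochondrial ribosomal proteins (0.96) have the highest medians, and proto-oncogenes and survival genes the lowest (-1.42); the fitted value of a gene without footprints in the RocA libraries depends on the prior count.

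Genes of EGFR signalling were lower or not called. EGFR (ENSG00000146648.17, chromosome 7, 55019021 to 55211628), the growth factor receptor that carries the activating deletion in NCI-H1650, stood at 432 and 402 CPM with DMSO and 242 and 207 CPM with RocA. Its change of -0.85 ± 0.25 (SE; edgeR adjusted p = 0.0040) was a call that ended without the 0.3 µM library (-1.05), at equal depth (-0.91) and in DESeq2 (-0.87), with a change of like size each time. STAT3, a transcription factor downstream of cytokine and growth factor receptors, fell from 466 and 493 CPM to 143 and 207 CPM (log2 -1.57 ± 0.27, SE; edgeR adjusted p = 1.1e-06). Of 21 tested genes of EGFR and PI3K signalling, 9 fell and 0 rose in edgeR's test, beside 20.6% and 17.2% of all tested genes, with a median of -0.85. At an unadjusted p under 0.05, 11 were lower and 1 higher, DESeq2 called 3 lower and 0 higher, and only 3 of the 21 were well counted. Of 16 tested proto-oncogenes and survival genes, 8 fell and 2 rose, with a median of -1.42, and only 3 of the 16 were well counted. DESeq2 called 4 of the 16 lower and 0 higher. Members of both lists could enter the test through their DMSO libraries alone. HIF1A, the hypoxia factor, fell from 523 and 462 CPM to 128 and 41.3 CPM (log2 -2.24, or -3.61 without the 0.3 µM library). MCL1, which restrains apoptosis, was at 0.73, a call that ended without the 0.3 µM library (0.37) and under several other settings.

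Of 5 tested immediate early and feedback genes, ZFP36 and FOS rose, beside 17.2% higher and 20.6% lower of all tested genes. FOS, a subunit of the AP-1 transcription factor, went from 155 and 116 CPM to 340 and 413 CPM (log2 1.41 ± 0.26, SE). ZFP36L1, the paralog of ZFP36, stood at 299 and 358 CPM with DMSO and 302 and 372 CPM with RocA, and its groups overlapped. KLF6 and MYC were not called, at -0.17 and -0.97. Of 4 tested genes of the integrated stress response, MTHFD2, an enzyme of mitochondrial folate metabolism, went from 714 and 723 CPM to 2378 and 1447 CPM (log2 1.49). ASNS was at 1.09, a call that ended in DESeq2, without the 0.3 µM library (1.14) and without DMSO replicate 2 (0.84). SLC3A2 was at -0.71, a call that ended in DESeq2 and without the 0.3 µM library (-0.64), and SHMT2 was not called (0.61).

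Genes of the interferon response moved both ways, beside 17.2% higher and 20.6% lower of all tested genes. MX1, an interferon-induced antiviral GTPase, fell from 1612 and 2091 CPM to 461 and 661 CPM (log2 -1.82 ± 0.21, SE). OAS1, also interferon-induced, was higher by 0.81, a call that ended without DMSO replicate 1 (0.60). Of the 13 tested genes of this group 2 rose, 4 fell and 7 were not called.

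RNA-binding and transport proteins moved both ways, beside 17.2% higher and 20.6% lower of all tested genes. Of 18 tested hnRNP proteins, which package nuclear RNA, 4 rose and 6 fell. HNRNPC fell from 760 and 864 CPM to 166 and 289 CPM (log2 -2.01) and PCBP2 from 1028 and 1018 CPM to 332 and 310 CPM (log2 -1.65), while PTBP1 rose from 697 and 614 CPM to 1827 and 1715 CPM (log2 1.44). Of 17 splicing genes 3 rose and 8 fell in edgeR's test, and DESeq2 called 2 higher and 2 lower. SF3B1, the branch-site factor, rose from 559 and 490 CPM to 1397 and 1364 CPM (log2 1.40). Of 25 nuclear transport genes 4 rose and 9 fell, with a median of -0.53, and DESeq2 called 3 higher and 4 lower. XPO1, the main exporter of proteins, fell from 694 and 562 CPM to 121 and 124 CPM (log2 -2.36 ± 0.28, SE), or by -2.96 at equal depth. The import receptor KPNB1 fell by log2 1.58 and the pore protein NUP155 rose by 1.53 (0.90 at equal depth).

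Protein turnover and growth genes were mixed, as were all tested genes, with 17.2% higher and 20.6% lower. Of 17 proteasome genes 3 rose and 5 fell, with PSMD7 at -1.29 (-0.67 at equal depth, not called) and PSMD8 at 0.83. Of 15 tested genes of ubiquitin conjugation, 2 rose and 7 fell, and DESeq2 called 0 higher and 3 lower. Among the falls in edgeR's test were UBE2D3, SAE1 (-1.19) and UBA1 (-0.50). The UBA1 call ended without either DMSO library or the 0.3 µM library. Of 28 S and M phase genes 6 rose and 4 fell. RRM2, the small subunit of ribonucleotide reductase, went from 625 and 672 CPM to 1986 and 1653 CPM (log2 1.52), and TPX2, a spindle protein, from 427 and 449 CPM to 90.6 and 41.3 CPM (log2 -2.50, or -3.44 without the 0.3 µM library and -3.31 at equal depth). Of 13 antioxidant genes 3 rose and 3 fell. The transporter ABCC3 went from 108 and 86.0 CPM to 461 and 331 CPM (log2 2.11), and NQO1, a quinone reductase, fell from 3440 and 3402 CPM to 1555 and 2356 CPM (log2 -0.88). Of 16 tested genes of cholesterol synthesis 4 fell and 1 rose. Of 7 tested genes of iron handling edgeR and DESeq2 called 0, and at an unadjusted p under 0.05 edgeR had 2 higher and 0 lower.

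The doses were set side by side with 1 library each, so there is no test. At 3 µM 19 of the 938 well-counted genes were at least 2-fold higher than at 0.3 µM (2.03%) and 29 at least 2-fold lower (3.09%). Counting intervals are given at 95%, with reads of the same fragment not told apart, so they cover counting error only. RHOBTB3 was furthest up, with 7 footprints at 0.3 µM and 10 at 3 µM. Scaled, that was 52.9 and 207 CPM, a ratio of 3.91 (1.34 to 12.1), with both doses below the 389 CPM mean of DMSO. TMED3, a cargo protein of early secretory vesicles, had a ratio of 3.54 (1.796 to 7.11), TRIP12, a ubiquitin ligase, 3.42 (1.68 to 7.06) and the cytokine receptor OSMR 3.16 (1.40 to 7.21). For OSMR, TMED3 and TRIP12 the 3 µM library lay among or above the DMSO values. Furthest down were GRINA, with 50 and 3 footprints and a ratio of 0.164 (0.0328 to 0.508), UBQLN1 with 14 and 1 (0.196, 0.00462 to 1.29) and DAG1 with 29 and 3 (0.283, 0.0552 to 0.914). The interval of UBQLN1 includes 1, so no difference was detectable at this depth.

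The response of NCI-H1650 was then set against the mean response of the other 3 lines in a fit of all 16 libraries. Few genes were called: of 6517 tested, 19 responded higher (0.292%) and 2 lower (0.0307%) in NCI-H1650, and 16 of these 21 were well counted. The test misses many differences, falls more than rises. In simulated data it recovered 16% of planted 2-fold rises and 10% of planted 2-fold falls. At 4-fold it recovered 80% of rises and 34% of falls, so neither the small number nor the balance of calls can be read as a result. At an unadjusted p under 0.05, 314 were higher and 193 lower. With all libraries thinned to equal depth 1 call was left, that of FLNA. Of the NCI-H520 libraries, 2 carry the label NCI-H521 in their cell line field, and without them 15 genes were higher and 2 lower. Reading the longest matched entry of each gene turned the balance, with 10 higher and 15 lower.

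Linker proteins of the cytoskeleton were among those that rose further in NCI-H1650. FLNA rose by 2.50 in NCI-H1650, against 1.35 for NCI-H520, 0.89 for Hs 936.T and 1.31 for A375, a difference of 1.31 ± 0.20 (SE; edgeR adjusted p = 5.1e-07) that ended without the 0.3 µM library (0.89). AHNAK differed by 1.14 ± 0.21 (SE), with A375 at 2.83 close to the 3.03 of NCI-H1650, and the call ended without DMSO replicate 2 (0.84) or the 0.3 µM library (1.12). ZFP36 rose by 4.11 against 1.89, 2.36 and 2.91 in NCI-H520, Hs 936.T and A375. Its difference of 1.73 ± 0.30 (SE) ended without the libraries labelled NCI-H521 (1.46) and with the longest matched entry (1.02). XBP1 rose by 3.15 against 1.68, 1.77 and 1.84, and its difference of 1.39 ± 0.28 (SE) ended without DMSO replicate 2 (1.23) or the 0.3 µM library (1.09).

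ADAM10 was the 1 well-counted gene that fell further in NCI-H1650. It had 274 and 278 footprints with DMSO in this line and 4 and 1 with 0.3 and 3 µM RocA, a log2 response of -4.21. The responses of NCI-H520 (-1.88), Hs 936.T (-0.998) and A375 (-2.13) were smaller, with 14 to 156 footprints in their RocA libraries. The difference was -2.54 ± 0.53 (SE; edgeR adjusted p = 0.0017), and the call ended without the 0.3 µM library (-2.74). Other differences came from genes that fell elsewhere. SP100, a nuclear body protein, was at -0.40 in NCI-H1650 against -2.15, -1.49 and -2.20 in NCI-H520, Hs 936.T and A375. GNE, the key enzyme of sialic acid synthesis, was at 0.63 against -1.39, -2.06 and -0.51. Both calls ended without the 0.3 µM library, with differences of 1.20 and 1.64. The SP100 call also ended with the longest matched entry, where the difference was only 0.39. PLK2 and SHISA5 differed by 2.91 and 2.98, but rest on NCI-H520, where both had 0 footprints in both RocA libraries and 2 and 20 (PLK2) or 11 and 19 (SHISA5) with DMSO.

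**Figure D5:**
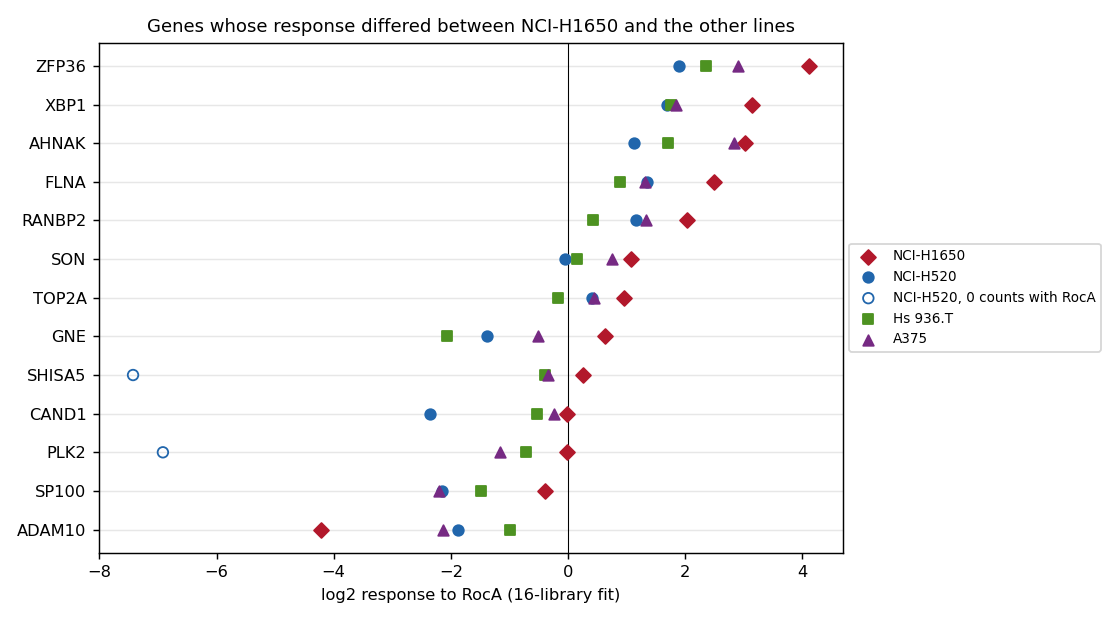
The log2 response to RocA in each of the 4 lines for 13 of the 16 well-counted genes whose response in NCI-H1650 differed from the mean of the other lines; red diamonds are NCI-H1650, and open circles mark genes with 0 footprints in both RocA libraries of NCI-H520, whose fitted values depend on the prior count. NCI-H1650 lies to the right of all other lines in 12 genes and to the left in ADAM10 (-4.21).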

How the data were processed

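Per the submitters' processing notes, CASAVA 1.8, Bowtie2 2.1.0, TopHat2 2.0.9 and the build hg38 were used; no source used here names the annotation release. The authors deposited, per library, raw footprint counts for 182398 transcript entries with the codons counted (the coding sequence less 10 codons), an other value used here only as a length; 88482 entries have none. Entries were named by matching the lengths of neighbouring entries to GENCODE 29 (score at least 14, odds at least 100). This named 9374 of 19951 coding genes (47.0%); 189 decoys with altered lengths also passed, 2.0% of those passing. The entry with the highest count over the 16 libraries stood for its gene. Mitochondrially encoded and unnamed genes were not analysed here.

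The tools were edgeR 4.0.16 in R 4.3.3 (TMM, filterByExpr with a minimum count of 10, robust quasi-likelihood test, 2-sided, Benjamini-Hochberg adjusted p under 0.05), DESeq2 1.42.0 as an alternative, and Python 3.11.15. The difference between lines used all 16 libraries with line, line by RocA and dose terms. The naming and both fits were tested on simulated data. Of 19951 genes in those data, the naming matched 5252 right and 106 wrong. The fit of RocA against DMSO in NCI-H1650 recovered 21.3% of planted 2-fold rises and 7.7% of planted 2-fold falls. At 4-fold it recovered 88% of rises and 33.3% of falls, so the balance of its calls cannot be read as a result. No replicate term was fitted. Named genes were the 10 largest rises and falls among well-counted called genes whose groups did not overlap, up to 4 called members of each list, all tested members of lists under 6, the helicases with their partners, EGFR, the largest differences between lines, and the 4 genes most apart between doses in each direction; some genes that these rules select are not reported here, and genes named beyond the rules were chosen after their values were seen. The members and lists were chosen with earlier results of these data known.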

Additional observations from a re-analysis of the deposited data

Results flagged for a closer look

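The response to RocA differed between NCI-H1650 and the mean of the other lines, by edgeR's test of the difference itself, in 16 well-counted genes (log2 NCI-H1650 less the others). ADAM10 differed by -2.54. Higher were TOP2A by 0.73, SON by 0.80, CAND1 by 1.02, RANBP2 by 1.07, AHNAK by 1.14, FLNA by 1.31, XBP1 by 1.39, SP100 by 1.55, ZFP36 by 1.73, GNE by 1.95, PLK2 by 2.91 and SHISA5 by 2.98. SON and CAND1 were named after their values were seen. The fitted response of CAND1, a regulator of cullin ubiquitin ligases, was -0.02 in NCI-H1650, with NCI-H520 at -2.35, Hs 936.T at -0.52 and A375 at -0.24. The CAND1 call ended with DESeq2 size factors (0.91), with the longest matched entry (0.81) and without the libraries labelled NCI-H521 (1.10). The SON call ended with DESeq2 size factors (0.69) and with the longest matched entry (0.58). So did the TOP2A call (0.62 and 0.52).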

How the results depend on the processing

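The counts of calls for RocA against DMSO in NCI-H1650, 793 higher and 951 lower, became 384 and 298 with DESeq2, 301 and 298 over well-counted genes alone (938 tested) and 251 and 259 with libraries thinned to equal depth (1183 tested). Leaving out 1 library gave 279 to 798 higher and 282 to 874 lower, lowest without the 0.3 µM library; without DMSO replicate 1 they were 461 and 610 and without DMSO replicate 2 455 and 613. For the difference between lines, 19 higher and 2 lower became 1 and 0 at equal depth (58 and 61 at an unadjusted p under 0.05) and 10 and 15 with the longest matched entry, an alternative chosen after seeing the data. Lower calls were 7 with DESeq2 size factors and 8 against NCI-H520 alone, and leaving out 1 NCI-H1650 library gave 4 to 22 higher and 1 to 3 lower. At equal depth FLNA alone kept its call among the 16 differences. Spearman's correlation over all tested genes was -0.373 for 5′ UTR length and -0.058 for codons counted. Medians of gene groups, over the members tested in each setting, counted as moved beyond their SD between doses. At equal depth 7 moved and changed sign, 13 moved with the same sign, 2 changed sign without moving and 9 did neither. Without the 0.3 µM library these numbers were 7, 12, 3 and 9, so the sign of a small group median depends on the processing. The causes were not tested.

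Among genes named for RocA against DMSO, 1312 of the alternative values kept direction and side of the threshold, 99 lost the call, 4 gained it and 25 changed sign. Among the differences between lines, 77 kept and 53 lost the call. Apart from SERPINB5 with the longest matched entry, the changes of sign were in genes near 0, thinly counted or far apart between doses. Leaving out 1 library at a time gave log2 changes of -0.146 to 0.144 for CAV1, -6.40 to 0.839 for COL6A2, -0.0119 to 0.567 for FN1, -0.681 to 0.677 for KLF6, -1.43 to 0.152 for OSMR, -0.416 to 0.294 for PLK2, -1.34 to 1.01 for SERPINB5, -1.28 to 0.468 for TMED3, -0.008 to 0.956 for UBA2, -0.522 to 0.585 for UCHL1 and -0.206 to 0.139 for ZFP36L1. Over well-counted genes alone CAV1 was at -0.184, EIF4A1 at -0.0182 and PLK2 at -0.154. At equal depth CAV1 was at -0.200, PLK2 at -0.380 and ZFP36L1 at 0.149. With no filter CAV1 was at -0.0311 and PLK2 at -0.0070, and in the fit of 16 libraries PLK2 was at -0.0219. With DESeq2 SERPINB5 was at 0.0122. With the longest matched entry SERPINB5 was at 2.22 and called higher (edgeR adjusted p = 7.5e-23), so the entries of this gene disagreed.

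No paired analysis was possible because the RocA libraries carry no replicate number. Depth limits the falls: only 993 genes had at least 10 footprints at 3 µM.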
